A study of Mus with 9 samples.

Results

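The 10 genes described here are blood endothelial and angiogenic genes: Pecam1 and Cdh5, which build junctions between endothelial cells, the VEGF receptors Kdr and Flt1, the TIE receptors Tek and Tie1, the angiopoietins Angpt1 and Angpt2, and the ligands Vegfa and Vegfb. They were chosen by gene symbol from a count table of 55421 genes, of which 19326 had enough counts to be tested. All 10 were found, and all 10 were among the genes tested. Messenger RNA was sequenced from 9 samples of wild-type male C57BL/6J mice aged 8 to 10 weeks, labelled as atria and, in the series design text, as left atrium. Infarcted mice given artesunate (MI_ART 1, 2 and 3) and infarcted mice given vehicle (MI 2, 3 and 4) had the left anterior descending coronary artery tied off permanently, and sham-operated mice given vehicle (Sham 1, 2 and 3) had the operation without the ligation. Artesunate is an artemisinin derivative used against malaria. The labels give its dose in conflicting ways, as 25 mg/kg a day for 7 days from surgery and as 10 mg/kg every other day from 2 days before surgery to day 7. They do not state the day of harvest, and only the sample labels speak for 1 mouse per library, so p-values reflect the differences among these libraries and may be technical in part. The study's title names atrial fibrillation brought on by infarction, and the comparisons ask how infarction and artesunate bear on these transcripts.

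New vessels form from existing ones when VEGF binds its receptor KDR, also called VEGFR2, on endothelial cells. FLT1, or VEGFR1, binds VEGFA, VEGFB and placental growth factor and limits the VEGFA that reaches KDR. Resting vessels are kept stable by ANGPT1, which activates the receptor TEK, also called TIE2, whereas ANGPT2 is released by activated endothelium and can oppose ANGPT1 at the same receptor. TIE1 is a related receptor without a well established ligand of its own that modulates TEK signalling.

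The members lie on 7 chromosomes of the GRCm38 build, by RefSeq's gene table. Kdr (chr5:75932827-75979072) and Flt1 (chr5:147561604-147726438) are on chromosome 5, Tek (chr4:94739086-94874976) and Tie1 (chr4:118471191-118489849) on chromosome 4, and Cdh5 (chr8:104101613-104144504) and Angpt2 (chr8:18690263-18741562) on chromosome 8. Pecam1 (chr11:106654213-106715281), Angpt1 (chr15:42424667-42676977), Vegfa (chr17:46016993-46032377) and Vegfb (chr19:6982472-6987651) are each alone on theirs. The Angpt2 gene lies inside the span of Mcph1 (chr8:18595116-18808089), and how the counting treated strand is not given in the sources used here.

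Library totals ranged from 68046341 to 83685313 counts. Levels are in CPM, the usual unit for read counts relative to library size, with an effective size that rests on trimmed mean of M values factors (TMM), and a floor of 3 counts was 0.0322 to 0.0592 CPM. The 10 members together took 0.0618% to 0.108% of a library's counts. By its muscle markers the labelled tissue differed widely among libraries. The ventricular light chain Myl2 was 784 times the atrial light chain Myl7 by counts in MI_ART 3. In the other libraries it was 0.460 to 17.7 times Myl7, so these held both. It was 1.87, 2.36 and 0.460 times Myl7 in MI 2, 3 and 4, against 3.64, 17.7 and 6.57 in Sham 1, 2 and 3. Every MI library was below every Sham library in this ratio, and what the muscle mixture adds to MI over Sham was not tested. Myl7 itself ranged from 1.96 CPM in MI_ART 3 to 989 CPM in MI 4. MI_ART 3 thus had almost no Myl7 although it is labelled as atria, and it enters every comparison of MI_ART. MI 4 stood apart from MI 2 and MI 3, against which a chi-square of counts averaged 580 and 469 per gene. All other pairs within a group lay between 62.5 and 129. MI 4 and MI_ART 3 were also left out together as a check. A whole-tissue count cannot tell fewer endothelial cells from less of a transcript per cell.

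Infarction was followed by an uneven change among these genes. In MI libraries the receptors Kdr, Flt1 and Tek, the ligand Vegfb and the vessel-stabilising Angpt1 were lower than in Sham libraries, Angpt2 was higher, and Pecam1, Cdh5, Tie1 and Vegfa did not pass the test, all with TMM scaling. With total counts the receptors and Vegfa had values above 0 and none of the lower calls stood. By edgeR's quasi-likelihood test, with p adjusted by Benjamini and Hochberg over all tested genes and a threshold of 0.05, 6 of the 10 members were called, 1 higher and 5 lower. Over all tested genes 33.1% were called, 18.8% higher and 14.3% lower. The median log2 fold change of the 10 members was -0.66, beside 0.04 for all tested genes. In 5 members, Kdr, Flt1, Tek, Vegfa and Vegfb, every MI library lay below every Sham library, and 48.9% of all tested genes had libraries that did not overlap between these groups. That share is close to the members' own, so it sets nothing apart about them. Leaving out 1 library changed how many members were called, to 1 without Sham 1, 2 without Sham 3, and 3 without Sham 2, MI 3 or MI_ART 1. Without MI 4 the calls were 0 higher and 4 lower, and without MI_ART 2 or MI_ART 3 they were 1 higher and 3 lower. Only leaving out MI 2 again gave 1 higher and 5 lower, though not for the same genes. Tek lost its call (adjusted p = 0.0502, edgeR) and Vegfa gained one (adjusted p = 0.0262, edgeR).

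**Figure D1:**
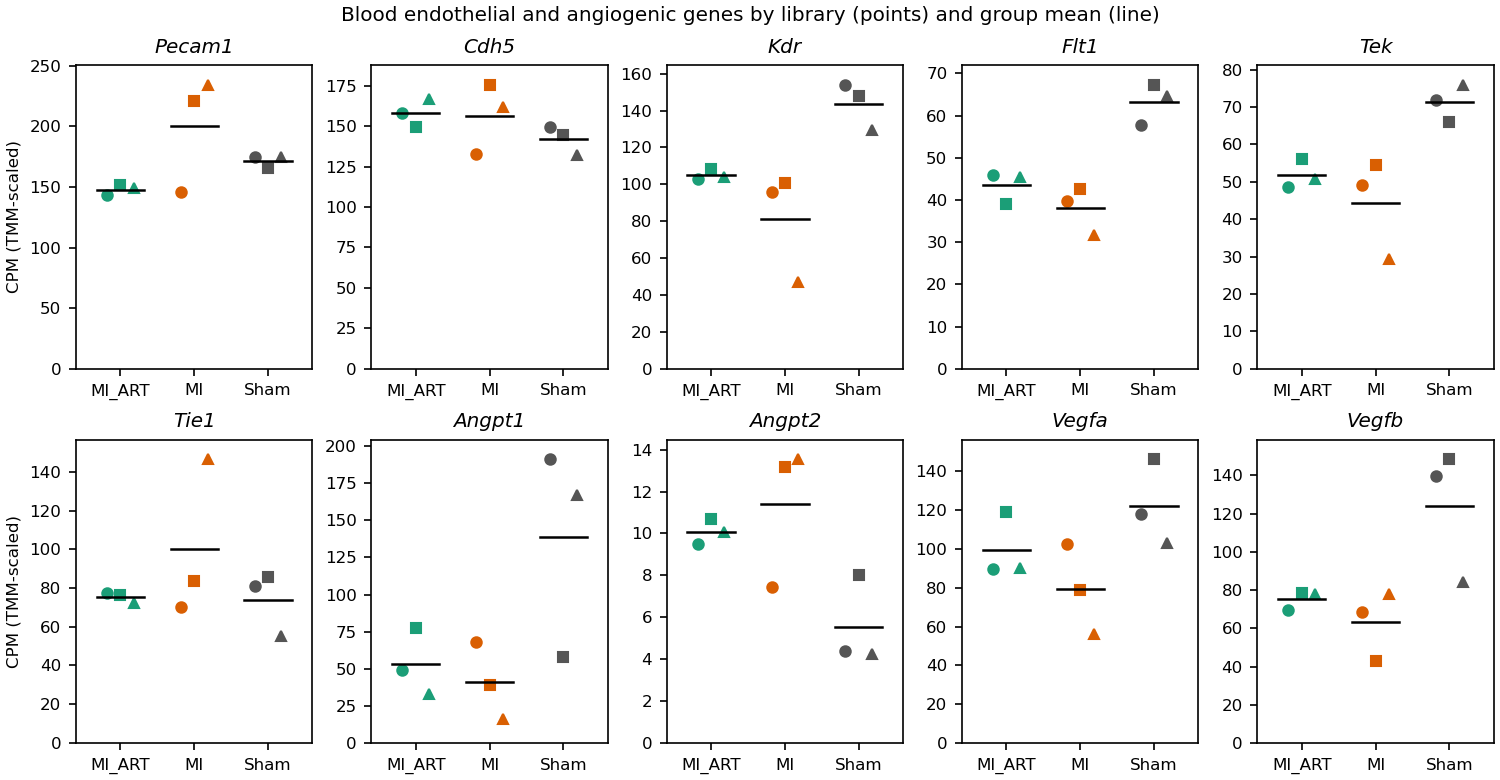
Level of each gene in CPM (vertical axes, starting at 0 and scaled per gene) in the 3 libraries of each group, with circles, squares and triangles for the libraries in order of their number and a line at the group mean. Kdr, Flt1 and Tek are lower in every MI_ART and MI library than in every Sham library, whereas Cdh5 stays between 132 and 175 CPM in all 9, with TMM scaling.

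Cdh5 encodes VE-cadherin, the adhesion protein of endothelial junctions. It was at 158, 149 and 167 CPM in MI_ART 1, 2 and 3, at 133, 175 and 162 CPM in MI 2, 3 and 4, and at 149, 144 and 132 CPM in Sham 1, 2 and 3. MI and Sham libraries overlapped, and the log2 fold change of MI over Sham was 0.14 ± 0.16 (SE, adjusted p = 0.526, edgeR), with a 95% interval of -0.21 to 0.49. Profiles over the 9 libraries were compared with those of 13520 genes with a mean of at least 1 CPM in at least 1 group. Genes with Gm-number or Rik symbols were left out. The profiles most like that of Cdh5 were those of Rmnd5b, Pdap1, Chic2 and Prep, with root mean square differences of 0.0757 to 0.0877 in centred log2 CPM. These genes had log2 fold changes of 0.07 to 0.16 in MI over Sham.

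Pecam1 encodes CD31, an adhesion molecule of endothelial cells that platelets and some white blood cells also carry. It stood at 143, 151 and 149 CPM in MI_ART 1, 2 and 3, at 146, 221 and 234 CPM in MI 2, 3 and 4, and at 175, 165 and 175 CPM in Sham 1, 2 and 3. MI 3 and MI 4 were above every Sham library and MI 2 below every one, and the log2 fold change of MI over Sham was 0.22 ± 0.19 (SE, adjusted p = 0.401, edgeR). Markers of cells that can share Pecam1 moved with the groups. The summed level of 8 macrophage and monocyte markers was 1726 to 3373 CPM in MI_ART, 2562 to 3061 CPM in MI and 314 to 468 CPM in Sham libraries, and 7 of the 8 were called higher in MI over Sham. The summed level of 6 platelet markers was 57.9 to 111 CPM in MI_ART, 84.9 to 157 CPM in MI and 11.2 to 15.4 CPM in Sham libraries. Pf4 made up most of this sum in MI and Sham, with means of 98.5 and 10.9 CPM. It was called higher in MI over Sham, as were Ppbp and Itga2b, 3 of 6. Gp9, Gp5 and Gp1bb averaged 0.316, 0.122 and 0.209 CPM in MI and were not called, and Gp9 and Gp5 were at 0 in at least 1 library. The platelet sum thus rests mainly on Pf4 and does not measure the amount of platelets. What macrophages, monocytes and platelets add to the Pecam1 level was not tested.

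Kdr, the main signalling receptor for VEGFA, was at 103, 108 and 104 CPM in MI_ART 1, 2 and 3, at 95.6, 101 and 46.8 CPM in MI 2, 3 and 4, and at 154, 148 and 129 CPM in Sham 1, 2 and 3. Every infarcted library was below every Sham library, and MI 4 was the lowest. Kdr fell in MI over Sham by 0.83 ± 0.26 on the log2 scale (SE, adjusted p = 0.0338, edgeR), with means of 81.1 ± 29.8 CPM in MI and 144 ± 12.7 CPM in Sham (SD, n = 3 each). The call did not hold when any 1 Sham or any 1 MI_ART library was left out, with adjusted p between 0.0533 and 0.0979, nor with no filter on low counts (0.0648) or in a fit of only MI and Sham (0.0878).

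Flt1 was at 45.9, 39.1 and 45.5 CPM in MI_ART 1, 2 and 3, at 39.7, 42.7 and 31.7 CPM in MI 2, 3 and 4, and at 57.8, 67.2 and 64.5 CPM in Sham 1, 2 and 3. The infarcted libraries again lay below all Sham libraries. Flt1 had the smallest adjusted p of the 10 members in MI over Sham, where it fell by 0.73 ± 0.16 on the log2 scale (SE, adjusted p = 0.00700, edgeR). This call held in 19 of 20 alternative settings, the exception being scaling by total counts.

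Tek encodes TIE2, the receptor of both angiopoietins. It was at 48.7, 56.2 and 50.8 CPM in MI_ART 1, 2 and 3, at 49.3, 54.5 and 29.4 CPM in MI 2, 3 and 4, and at 71.8, 66.0 and 75.9 CPM in Sham 1, 2 and 3, with no overlap between the infarcted and the Sham libraries. Tek fell in MI over Sham by 0.68 ± 0.22 on the log2 scale (SE, adjusted p = 0.0377, edgeR). Without MI 2, any 1 Sham or any 1 MI_ART library it was not called, with adjusted p of 0.0502 to 0.108, nor with no filter on low counts (0.0727) or in a fit of only MI and Sham (0.0949).

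Tie1, the other receptor of the TIE family, showed no such drop. Its level was 77.6, 76.2 and 72.4 CPM in MI_ART 1, 2 and 3, 70.2, 83.6 and 146 CPM in MI 2, 3 and 4, and 80.9, 85.5 and 55.4 CPM in Sham 1, 2 and 3. MI 4 stood far above the rest and the groups overlapped, with a log2 fold change of MI over Sham of 0.44 ± 0.27 (SE, adjusted p = 0.251, edgeR).

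**Figure D2:**
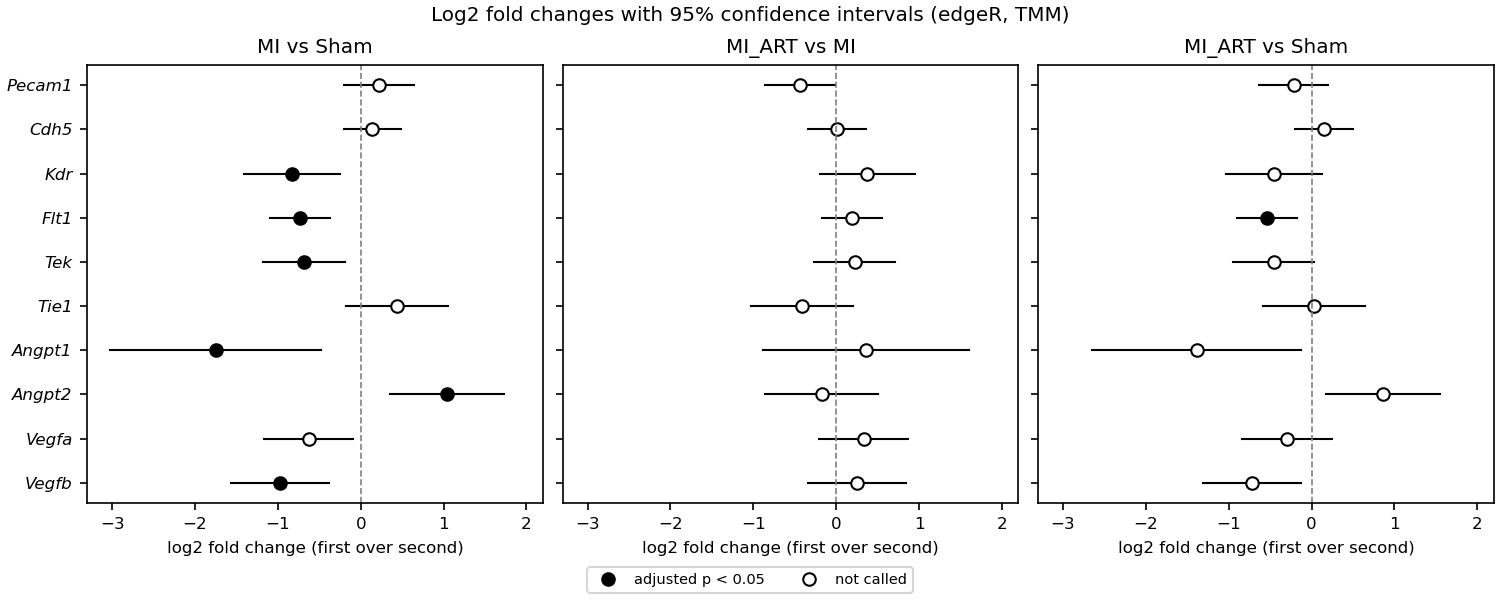
Log2 fold change (horizontal axis, first group over second) of the 10 genes in the 3 comparisons, with bars for 95% confidence intervals and filled circles for adjusted p under 0.05. There are 6 filled circles for MI over Sham, 0 for MI_ART over MI and 1, Flt1, for MI_ART over Sham, all with TMM scaling, whereas with total counts none of the lower calls stood.

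Angpt1, the stabilising ligand of TIE2, had the largest SE of the 10 members in MI over Sham. Its level was 48.9, 77.4 and 32.7 CPM in MI_ART 1, 2 and 3, 68.2, 39.1 and 16.2 CPM in MI 2, 3 and 4, and 191, 57.7 and 167 CPM in Sham 1, 2 and 3. Sham 2 was below MI 2, so the groups overlapped. Angpt1 fell in MI over Sham by 1.75 ± 0.57 on the log2 scale (SE, adjusted p = 0.0399, edgeR), a mean of 41.2 ± 26.1 CPM in MI against 139 ± 71.1 CPM in Sham (SD, n = 3 each). The call was lost without Sham 1, Sham 3, MI 3, MI 4 or MI_ART 1, with adjusted p from 0.0569 to 0.123, and also with no filter on low counts (0.0708) and in a fit of only MI and Sham (0.0611). Myl7, the atrial light chain, was at 173, 803 and 1.96 CPM in MI_ART 1, 2 and 3, at 453, 347 and 989 CPM in MI 2, 3 and 4, and at 822, 168 and 576 CPM in Sham 1, 2 and 3. The order of the libraries by Angpt1 was that by Myl7 within MI_ART and within Sham but not within MI. The summed level of 5 atrial muscle markers was 1302 to 12368 CPM in MI_ART, 13430 to 25084 CPM in MI and 1739 to 7323 CPM in Sham libraries. Bmp10 was at 0 in at least 1 library of each group, and 0 of 5 were called in MI over Sham. Within MI, Bmp10 was at 42.0 CPM in MI 4 and at 0 in MI 2 and MI 3, and its mean in Sham was 0.0369 CPM. Nppa made up most of this sum in MI and Sham, with means of 14530 and 3340 CPM. Myl4 averaged 1911 CPM in MI and 879 CPM in Sham, Myl7 596 and 522 CPM, and Sln 346 and 299 CPM. The sum therefore does not measure the amount of atrial muscle. The part of the muscle mixture in the Angpt1 level was not tested.

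Angpt2, which activated endothelial cells store and release, moved the other way at a low level. It was at 9.49, 10.7 and 10.1 CPM in MI_ART 1, 2 and 3, at 7.45, 13.2 and 13.5 CPM in MI 2, 3 and 4, and at 4.37, 8.00 and 4.23 CPM in Sham 1, 2 and 3. MI 2 was just below Sham 2, and the other MI libraries were above all Sham libraries. Angpt2 rose in MI over Sham by 1.04 ± 0.31 on the log2 scale (SE, adjusted p = 0.0269, edgeR), or 2.06-fold. Without Sham 1, Sham 3, MI 3 or MI 4 it was not called, with adjusted p of 0.0648 to 0.0995, nor in a fit of only MI and Sham (0.0571). Mcph1, the gene that spans Angpt2, stood at -0.12 ± 0.27 on the log2 scale in MI over Sham (SE, adjusted p = 0.758, edgeR), opposite in sign to that of Angpt2. Lmf2, Oas1c, Fbxo46 and Lcat had the profiles most like that of Angpt2 over the 9 libraries, with root mean square differences of 0.196 to 0.219 in centred log2 CPM.

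Vegfb, a ligand of FLT1 with a known role in heart muscle and its vessels, was at 69.4, 78.3 and 78.0 CPM in MI_ART 1, 2 and 3, at 68.5, 43.0 and 78.1 CPM in MI 2, 3 and 4, and at 140, 148 and 84.2 CPM in Sham 1, 2 and 3. All infarcted libraries were below all Sham libraries, with Sham 3 close to them. Vegfb fell in MI over Sham by 0.97 ± 0.27 on the log2 scale (SE, adjusted p = 0.0188, edgeR). Leaving out Sham 1, Sham 2 or MI 3 ended the call, at an adjusted p of 0.0544 to 0.0719, as did a fit of only MI and Sham (0.0554).

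Vegfa, the main growth factor for blood vessels, was at 89.9, 119 and 90.1 CPM in MI_ART 1, 2 and 3, at 103, 78.8 and 56.2 CPM in MI 2, 3 and 4, and at 118, 146 and 103 CPM in Sham 1, 2 and 3. The highest MI library and the lowest Sham library were almost level, at 102.6 and 102.9 CPM. The log2 fold change of MI over Sham was -0.63 ± 0.24 (SE, adjusted p = 0.0724, edgeR), past the threshold with DESeq2 (adjusted p = 0.0479) and without MI 2 (adjusted p = 0.0262). The summed level of 4 ventricular muscle markers was 2920 to 4471 CPM in MI_ART, 1654 to 3029 CPM in MI and 7573 to 8438 CPM in Sham libraries, with 2 of 4 called lower in MI over Sham and none at 0. Heart muscle is a known source of Vegfa and Vegfb, and its part in their levels here was not tested.

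How the libraries are scaled decided the sign of several of these changes. By total counts alone the median log2 fold change of all tested genes was 0.88 in MI over Sham and 0.75 in MI_ART over Sham, beside 0.04 and 0.01 with TMM. Scaled that way, Kdr, Flt1, Tek and Vegfa had log2 fold changes of 0.01, 0.11, 0.16 and 0.20 in MI over Sham and were not called, Vegfb and Angpt1 were at -0.15 and -0.90 and were not called, and Pecam1, Cdh5, Tie1 and Angpt2 were called higher at 1.08, 0.99, 1.28 and 1.88. A change of scaling shifts all genes by nearly the same amount, so the order of the members cannot test the TMM result. Relative to the median of all genes under total counts, that order was the one seen with TMM. Kdr, Flt1, Tek, Vegfa, Vegfb and Angpt1 stood at -0.87, -0.77, -0.72, -0.69, -1.03 and -1.78, and Pecam1, Cdh5, Tie1 and Angpt2 at 0.20, 0.11, 0.39 and 0.99. Mitochondrially encoded genes took 12.6% to 43.1% of a library's counts, and leaving them out of the TMM scaling kept the same number of calls, 1 higher and 5 lower.

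**Figure D3:**
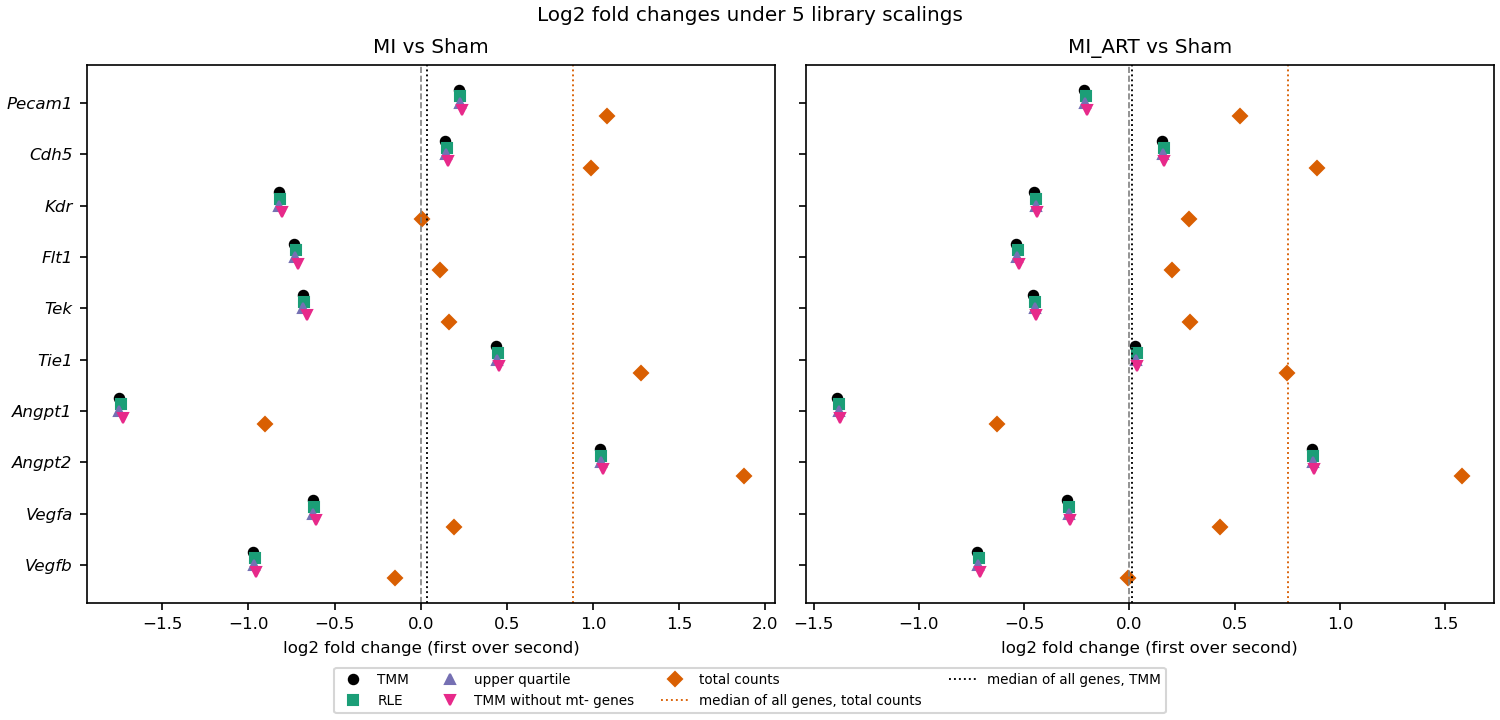
Log2 fold changes of the 10 genes (horizontal axes) in MI over Sham and MI_ART over Sham under 5 ways of scaling the libraries, with dotted lines at the median of all tested genes for TMM and for total counts. In MI over Sham the 4 scalings other than total counts give nearly the same values, and total counts moves both the genes and the median, to 0.88.

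Ratios of counts within a library do not depend on scaling, and Cdh5 served as the endothelial denominator. Such a ratio cannot tell a fall of its numerator from a rise of Cdh5. With total counts Cdh5 was called higher in MI over Sham and in MI_ART over Sham, at 0.99 and 0.89 on the log2 scale. Kdr over Cdh5 was 0.653, 0.724 and 0.625 in MI_ART 1, 2 and 3, 0.721, 0.575 and 0.290 in MI 2, 3 and 4, and 1.03, 1.03 and 0.978 in Sham 1, 2 and 3. Every infarcted library was below every Sham library in this ratio. Only differences between groups are read from these ratios, because the length of each transcript enters its count. The log2 ratio of Kdr to Cdh5 differed by -1.04 in MI from Sham, or by -0.65 without MI 4.

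Flt1 over Cdh5 was 0.291, 0.262 and 0.273 in MI_ART 1, 2 and 3, 0.299, 0.243 and 0.196 in MI 2, 3 and 4, and 0.387, 0.466 and 0.488 in Sham 1, 2 and 3. Tek over Cdh5 was 0.309, 0.376 and 0.305 in MI_ART 1, 2 and 3, 0.371, 0.310 and 0.182 in MI 2, 3 and 4, and 0.481, 0.457 and 0.573 in Sham 1, 2 and 3. Both ratios were lower in every infarcted library than in every Sham library, with log2 differences of MI from Sham of -0.88 for Flt1 and -0.86 for Tek. The difference for Tek was -0.56 without MI 4. Angpt2 over Cdh5 was higher in every infarcted library than in every Sham library, by 0.92 on the log2 scale in MI. MI 2 and Sham 2 were almost level in this ratio, at 0.0561 and 0.0554. Each of these 4 ratios had a two-sided exact permutation p of 0.1 in MI against Sham, the smallest that 3 libraries against 3 allow, and 0.225 after adjustment over the 27 ratio tests, so none passed the threshold.

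The receptors of the TIE family were also set against each other. Tie1 over Tek was 1.59, 1.36 and 1.43 in MI_ART 1, 2 and 3, 1.43, 1.53 and 4.99 in MI 2, 3 and 4, and 1.13, 1.29 and 0.730 in Sham 1, 2 and 3. All infarcted libraries were above all Sham libraries, by a log2 difference of 1.12 in MI that was 0.53 without MI 4 (exact permutation p = 0.1 with all libraries). Flt1 over Kdr overlapped between MI and Sham, with a log2 difference of 0.16 (exact permutation p = 0.7) that was -0.07 without MI 4. Angpt2 over Angpt1 was 0.194, 0.138 and 0.308 in MI_ART 1, 2 and 3, 0.109, 0.337 and 0.838 in MI 2, 3 and 4, and 0.0229, 0.139 and 0.0253 in Sham 1, 2 and 3. Sham 2 lay among the infarcted libraries, and the log2 difference of 2.86 in MI from Sham had an exact permutation p of 0.2. Vegfa over Vegfb also overlapped between MI and Sham, with a log2 difference of 0.32 (exact permutation p = 0.5).

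**Figure D4:**
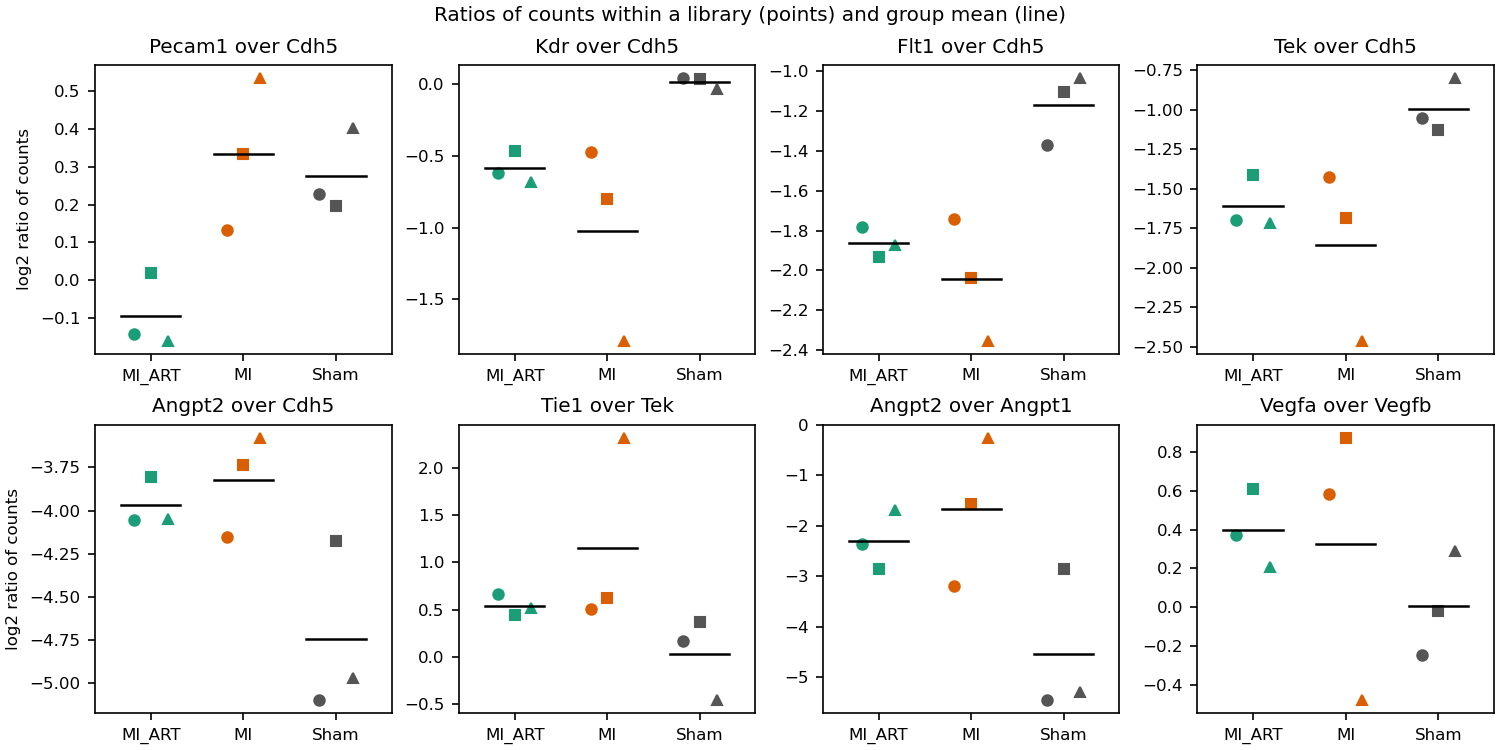
Log2 ratio of counts of 2 genes in each library (vertical axes, a scale per panel) for the 3 groups, with a line at the group mean. Kdr, Flt1 and Tek over Cdh5 lie lower in all infarcted libraries than in all Sham libraries, and Angpt2 over Cdh5 and Tie1 over Tek lie higher.

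Artesunate after infarction was followed by no change in these genes that passed the test. Of the 10 members, 0 were called in MI_ART over MI by edgeR, 0 by DESeq2 and 0 by limma-voom, and 1 had an unadjusted p under 0.05 by edgeR. Over all tested genes 0.0103% were called, the zinc transporter gene Slc39a9 and the fast skeletal troponin gene Tnnt3. The gene with an unadjusted p under 0.05 was Pecam1, with means of 148 ± 4.37 CPM in MI_ART and 200 ± 47.9 CPM in MI (SD, n = 3 each) and a difference of -0.44 ± 0.19 on the log2 scale (SE, adjusted p = 0.715, edgeR). Its 95% interval ran from -0.86 to -0.02. Pecam1 over Cdh5 was 0.906, 1.01 and 0.895 in MI_ART 1, 2 and 3 and 1.10, 1.26 and 1.45 in MI 2, 3 and 4, lower in every MI_ART library, with a log2 difference of -0.43 (exact permutation p = 0.1, adjusted p = 0.225 over 27).

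The mean level of each of the 4 receptors under artesunate was between the means of the other groups. Kdr averaged 105 ± 2.67 CPM in MI_ART and 81.1 ± 29.8 CPM in MI (SD, n = 3 each), a log2 fold change of 0.37 with a 95% interval of -0.20 to 0.95. Kdr was the only member whose MI_ART and MI libraries did not overlap, against 13.9% of all tested genes, and MI 3 at 101 CPM was close to MI_ART 1 at 103 CPM. The intervals of MI_ART over MI were -0.17 to 0.56 for Flt1, -0.26 to 0.71 for Tek and -1.02 to 0.20 for Tie1. For the ligands they were -0.88 to 1.61 for Angpt1, -0.85 to 0.50 for Angpt2, -0.21 to 0.87 for Vegfa and -0.34 to 0.84 for Vegfb. For Cdh5 the interval was -0.33 to 0.36. These intervals, which are not adjusted for the number of genes tested, leave room for changes of either sign in 9 of the 10 genes.

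Against Sham, the infarcted mice given artesunate differed in 1 member by the test. Flt1 fell in MI_ART over Sham by 0.54 ± 0.16 on the log2 scale (SE, adjusted p = 0.0427, edgeR), and over all tested genes 20.3% were called, 12.9% higher and 7.41% lower. The call was lost without any 1 Sham library, any 1 MI_ART library, MI 2 or MI 3, with adjusted p of 0.0501 to 0.174, and with total counts the log2 fold change was 0.20. The MI_ART and Sham libraries did not overlap in 7 members, Cdh5 and Angpt2 higher and Pecam1, Kdr, Flt1, Tek and Vegfb lower, where 48.2% of all tested genes did not overlap. The median log2 fold change of the members was -0.37, beside 0.01 for all tested genes.

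Kdr and Tek had log2 fold changes of -0.45 ± 0.26 and -0.46 ± 0.22 in MI_ART over Sham (SE, adjusted p = 0.257 and 0.178, edgeR). Both were called lower once MI 4, which enters the shared estimate of spread, was left out (adjusted p = 0.00924 for Kdr and 0.0107 for Tek). Angpt2 stood at 0.87 ± 0.31 (SE, adjusted p = 0.0762, edgeR) that was called without Sham 2 (adjusted p = 0.0269). Vegfb stood at -0.72 ± 0.26 (SE, adjusted p = 0.0839, edgeR) and was called without Sham 3 or MI 4 (adjusted p = 0.0420 and 0.0486). Angpt1 stood at -1.39 ± 0.57 (SE, adjusted p = 0.115, edgeR), Vegfa at -0.30 ± 0.24 (SE, adjusted p = 0.446, edgeR), and Tie1 at 0.03 ± 0.27 (SE, adjusted p = 0.958, edgeR), or -0.14 without Sham 3. By ratios of counts, which are free of scaling, MI_ART libraries were below all Sham libraries in Kdr, Flt1, Tek and Pecam1 over Cdh5, with log2 differences of -0.60, -0.69, -0.61 and -0.37. They were above all Sham libraries in Angpt2 over Cdh5 and Tie1 over Tek, by 0.77 and 0.51. Each of these 6 had an exact permutation p of 0.1 and an adjusted p of 0.225 over the 27 ratio tests. MI_ART over Sham and MI over Sham share the Sham libraries, so their values are not independent of each other.

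Around these members, 12 lists of related genes with 114 genes gave 38 higher and 20 lower calls in MI over Sham, 0 in MI_ART over MI, and 25 higher and 14 lower in MI_ART over Sham. Each list count is to be read beside the shares over all tested genes, 18.8% higher and 14.3% lower in MI over Sham and 12.9% higher and 7.41% lower in MI_ART over Sham. The arterial and Notch, surface and junction, and transcription factor lists had 4 of 12, 5 of 17 and 5 of 14 genes called in MI over Sham, close to the 33.1% of all tested genes. The 0 in MI_ART over MI was also found with DESeq2 and limma-voom, while 23 of the 114, and 1346 of all 19326 tested genes, had an unadjusted p under 0.05 by edgeR. The 23 became 6 without MI_ART 3, 14 without MI_ART 2, 15 without Sham 1, MI 3 or MI_ART 1, 33 without MI 2, 9 with both MI 4 and MI_ART 3 left out, and 11 in a fit of only the groups compared. The count in MI_ART over Sham was 62 without MI 4, and 27, 25, 21, 19 and 23 without Sham 1, Sham 2, Sham 3, MI_ART 1 and MI_ART 3. With total counts the calls were 82 higher and 7 lower in MI over Sham, and 71 higher and 1 lower in MI_ART over Sham. The median of each list is a log2 fold change, to be read beside 0.04 for all tested genes in MI over Sham.

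Genes known from sprouting tip cells, the cells that lead a new vessel, were higher in MI over Sham for 11 of 13, with 0 lower and a median of 1.12. Col4a1 and Col4a2, the chains of basement membrane collagen IV, rose 3.70-fold and 3.18-fold (adjusted p = 0.000350 and 0.000310, edgeR), and both are also made by fibroblasts. Col4a2 was at 419, 445 and 403 CPM in MI_ART 1, 2 and 3, at 430, 557 and 604 CPM in MI 2, 3 and 4, and at 191, 180 and 129 CPM in Sham 1, 2 and 3, with every infarcted library above every Sham library. Summed over 6 markers, the fibroblast level was 2705 to 3178 CPM in MI_ART, 2976 to 4220 CPM in MI and 1170 to 1426 CPM in Sham libraries, with 4 of 6 called higher and 1, Dcn, lower in MI over Sham, and its part in the collagen levels was not tested. In MI_ART over Sham 5 of the 13 tip cell genes were called higher, and 8 without MI 4.

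Capillary endothelial genes were lower on balance in the same libraries. In MI over Sham 7 of 9 fell and 0 rose, the list's median being -1.27, and with total counts 1 was higher and 2 lower. Car4, a carbonic anhydrase on the capillary surface, was at 10.4, 7.78 and 9.54 CPM in MI_ART 1, 2 and 3, at 7.83, 5.32 and 7.11 CPM in MI 2, 3 and 4, and at 24.6, 27.4 and 25.0 CPM in Sham 1, 2 and 3. It fell in MI over Sham by 1.93 ± 0.20 on the log2 scale (SE, adjusted p = 0.000159, edgeR), with no overlap between infarcted and Sham libraries. Rgcc, a cell cycle regulator found in capillary endothelium, fell by 1.30 ± 0.19 on the log2 scale (SE, adjusted p = 0.000757, edgeR), a call lost with total counts. In MI_ART over Sham 6 of the 9 were called lower, 3 without Sham 2, MI_ART 1 or MI_ART 3, and 1 with total counts. Cd36, Fabp4 and Aqp1 of this list are not confined to endothelium. The ventricular muscle markers given beside Vegfa, with summed levels of 2920 to 4471 CPM in MI_ART, 1654 to 3029 CPM in MI and 7573 to 8438 CPM in Sham libraries, had 2 of 4 called lower in each of these comparisons, and the part of muscle in the capillary list was not tested.

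General endothelial surface and junction genes did not follow either pattern as a list, with 3 of 17 higher and 2 lower in MI over Sham and a median of 0.30. That became 2 higher and 0 lower without any 1 Sham or any 1 MI_ART library, and 16 higher with total counts. Cd93, a receptor that immune cells carry as well, and Ecscr, an endothelial migration gene, rose 2.06-fold and 2.69-fold in MI over Sham (adjusted p = 0.00274 and 0.00332, edgeR). Of 14 endothelial transcription factors 4 were higher and 1 lower in MI over Sham, led by Lyl1 and Hhex, which blood cells also express, at 3.22-fold and 2.23-fold (adjusted p = 0.00200 and 0.00477, edgeR). Without Sham 1 the list held 3 calls, and with total counts 11 were higher.

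Among 6 other VEGF ligands and receptors, Vegfd and Pgf were higher in MI over Sham and 0 were lower. Vegfd, a ligand with a main role in lymphatic vessels, was at 7.86, 5.91 and 6.14 CPM in MI_ART 1, 2 and 3, at 7.20, 5.82 and 8.04 CPM in MI 2, 3 and 4, and at 2.23, 2.05 and 2.41 CPM in Sham 1, 2 and 3, a 3.14-fold rise in MI over Sham (adjusted p = 0.000537, edgeR). Pgf, placental growth factor, which binds FLT1, rose by 1.51 ± 0.40 on the log2 scale (SE, adjusted p = 0.0158, edgeR), and was not called without Sham 1 or Sham 3 (adjusted p = 0.0521 and 0.0546). With total counts 5 of the 6 were higher. Lymphatic markers summed to 123 to 127 CPM in MI_ART, 88.0 to 105 CPM in MI and 129 to 156 CPM in Sham libraries. Of the 7, 1 was higher and 4 were lower in MI over Sham, and none was at 0. Prox1 had the largest mean of the 7 in Sham, 57.8 CPM, and averaged 21.3 CPM in MI. Pdpn, the higher one, averaged 23.4 CPM in MI and 4.72 CPM in Sham. What other cells add to these levels was not tested.

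The partners of angiopoietin and TIE signalling gave 2 higher and 1 lower of 5 in MI over Sham. Dok2, an adaptor that binds activated TIE2 and is abundant in blood cells, rose 8.40-fold (adjusted p = 0.000124, edgeR). Svep1, a matrix protein that binds TIE1, rose 1.91-fold (adjusted p = 0.00644, edgeR). The lower one, Foxo1, a transcription factor that drives Angpt2 in endothelial cells, stood at -0.60 ± 0.16 on the log2 scale (SE, adjusted p = 0.0193, edgeR) and was chosen after its value was seen. With total counts 3 of the 5 were higher and 0 lower. Neutrophil markers, given here beside Dok2, summed to 15.9 to 73.5 CPM in MI_ART, 40.8 to 104 CPM in MI and 1.32 to 1.34 CPM in Sham libraries, with 4 of 4 higher in MI over Sham and S100a8 and Retnlg at 0 in at least 1 Sham library, and what blood cells add to Dok2 was not tested.

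Arterial and Notch genes had 3 higher and 1 lower of 12 in MI over Sham, and 2 calls without Sham 1, Sham 2 or Sham 3. Notch4, an endothelial Notch receptor, rose 2.34-fold and Hey2, a Notch target also expressed in ventricular muscle, fell by 1.42 ± 0.33 on the log2 scale (SE, adjusted p = 0.00379 for Notch4 and 0.00869 for Hey2, edgeR). With total counts Hey2 was not called, and 9 genes of the list were higher. Adhesion molecules of activated endothelium were higher for 3 of 5 and lower for 0, with Vcam1 at 2.10-fold and Selp, which platelets also store, at 6.43-fold (adjusted p = 0.000809 and 0.00118, edgeR). Of 4 endocardial genes 1 was lower, Cytl1, which fell by 2.27 ± 0.53 on the log2 scale (SE, adjusted p = 0.00895, edgeR). Npr3, the natriuretic peptide clearance receptor, stood at -1.15 ± 0.43 (SE, adjusted p = 0.0640, edgeR) and was called without Sham 2, MI 2 or MI_ART 2. The endocardial list had 2 calls without Sham 2 or MI_ART 2 and 3 without MI 2, and with total counts 1 higher and 1 lower.

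Pericyte genes, which mark the cells that wrap capillaries and produce Angpt1, were higher for 1 and lower for 4 of 10 in MI over Sham, and for 4 and 3 with total counts. Kcnj8, a potassium channel subunit of pericytes, was at 22.6, 22.6 and 22.8 CPM in MI_ART 1, 2 and 3, at 17.9, 13.9 and 12.1 CPM in MI 2, 3 and 4, and at 42.8, 44.9 and 42.4 CPM in Sham 1, 2 and 3. All infarcted libraries were below all Sham libraries, and Kcnj8 fell in MI over Sham by 1.57 ± 0.17 on the log2 scale (SE, adjusted p = 0.000198, edgeR). Mcam, which endothelial and smooth muscle cells share, was the one that rose, 3.25-fold (adjusted p = 0.000571, edgeR). The list was divided among the 5 genes not called. Pdgfrb, Cspg4 and Notch3 stood at 0.60, 0.84 and 0.20 on the log2 scale, and Cox4i2 and Higd1b at -0.40 and -0.33. What muscle and other cells add to the levels of these genes and of Kcnj8 was not tested.

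Angiogenesis inhibitors were higher for 6 of 8 and lower for 0 in MI over Sham, and for 3 without Sham 1, Sham 2, Sham 3 or MI 3. Thbs1, thrombospondin 1, which platelets, macrophages and fibroblasts also make, was at 125, 70.2 and 141 CPM in MI_ART 1, 2 and 3, at 175, 206 and 112 CPM in MI 2, 3 and 4, and at 15.3, 16.1 and 12.0 CPM in Sham 1, 2 and 3. It rose 11.4-fold in MI over Sham (adjusted p = 0.000110, edgeR) with no overlap, and Serpinf1, pigment epithelium-derived factor, rose 2.94-fold (adjusted p = 0.00350, edgeR). A list of 11 genes held the hypoxia factor genes Hif1a and Epas1 and genes induced by hypoxia, the class to which Vegfa belongs. Of the 11, 3 were higher and 3 lower, with Epas1 among the lower and Hif1a not called. P4ha1, a collagen prolyl hydroxylase, rose 2.32-fold and Epas1, which encodes the hypoxia factor HIF2A and is abundant in endothelium, fell by 1.24 ± 0.17 on the log2 scale (SE, adjusted p = 0.000411 for P4ha1 and 0.000655 for Epas1, edgeR). With total counts Epas1 was not called, and 8 genes of the list were higher and 1 lower.

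**Figure D5:**
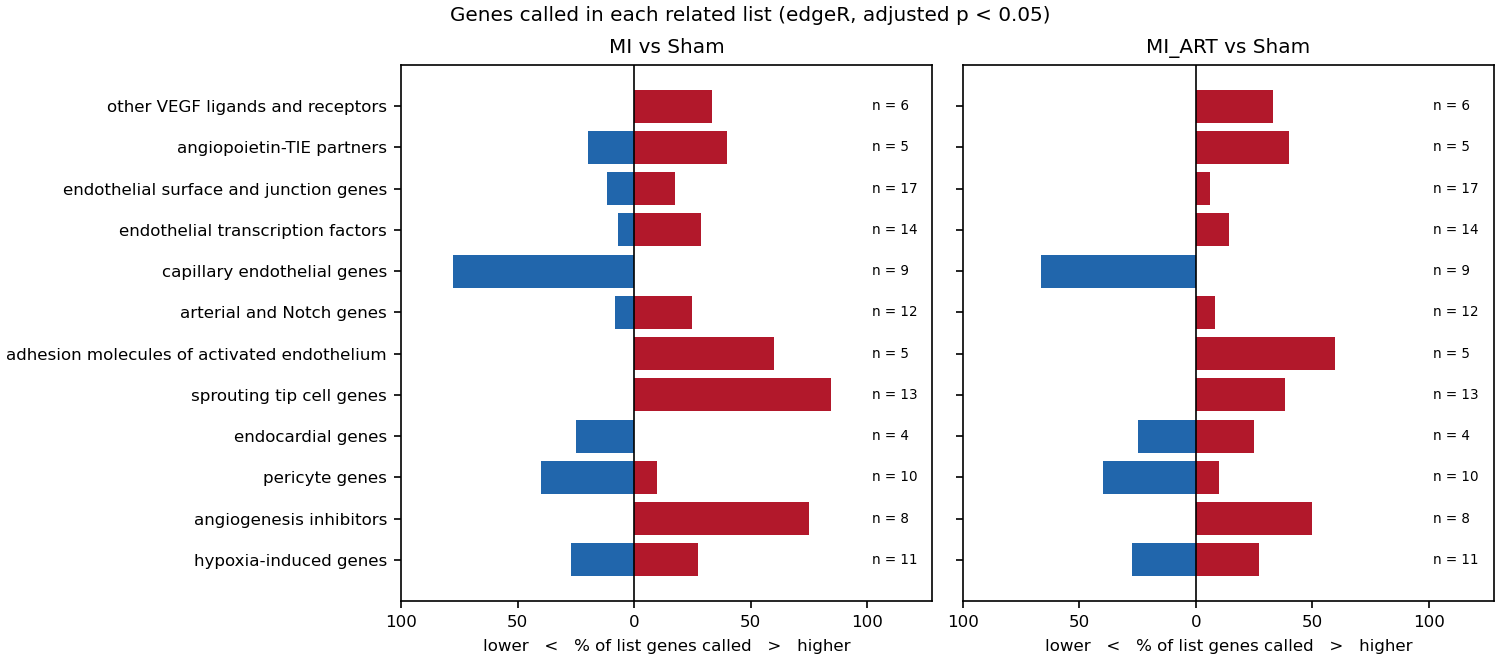
Percent of the genes of each related list that were called higher (red, to the right) or lower (blue, to the left) in MI over Sham and MI_ART over Sham, with the number of genes tested in each list. Tip cell genes lie to the right and capillary genes to the left in both comparisons, which share the Sham libraries, while with total counts 1 capillary gene was higher and 2 lower in MI over Sham, and 0 higher and 1 lower in MI_ART over Sham.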

How the data were processed

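The files hold raw counts of reads per gene, deposited by the authors without normalization, as a table of 9 libraries and as 1 file per library that equals it. Per the submitters' processing notes, the build was GRCm38 and the tools were featureCounts 1.5.0-p3, HISAT with no version, and DESeq 1.8.3. A SMARTer mRNA library kit was used on 1.3 µg of total RNA, per the labels' protocols. The labels conflict on dose, on RNA extraction and in calling the animals mice or rats.

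The main tool was edgeR 4.0.16 under R 4.3.3. Genes passing filterByExpr over the 3 groups were fitted in all 9 libraries with TMM scaling and compared by quasi-likelihood F tests, with Benjamini-Hochberg adjustment over 19326 genes and a threshold of 0.05. Adjusted p of genes and 95% intervals are from this fit unless another tool is named. CPM use the TMM-scaled library size. For ratios of counts within a library, 27 exact permutation tests were run, all two-sided. Alternatives were other scalings (RLE, upper quartile, total counts, TMM without mitochondrial genes), other filters, DESeq2 1.42.0, limma 3.58.1 with voom, only the groups compared, a replicate block, each library left out, and both MI 4 and MI_ART 3 left out. The script was tested on simulated data.

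Named genes are the 10 members, in each of the 12 related lists the 2 genes with the smallest unadjusted p in MI over Sham, 4 genes with the profiles most like Cdh5 and like Angpt2 (root mean square difference of centred log2 CPM with a prior count of 2, among genes with a mean of at least 1 CPM in at least 1 group and without Gm-number or Rik symbols), and the genes called in MI_ART over MI. Outside this rule, Foxo1, Mcph1, Myl2, Myl7 and single marker or list genes named beside a count were chosen after their values or positions were seen. The members, lists and rules were chosen with earlier results of these data known. All 10 members matched RefSeq's gene table of the same build. Same-numbered libraries of different groups did not deviate together, with correlations of -0.04 to 0.09 over genes, so numbers were not taken as pairs. Floors cover counting error only.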

Additional observations from a re-analysis of the deposited data

How the results depend on the processing

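Over all tested genes, 6399 were called in MI over Sham (10172 with total counts), 3921 in MI_ART over Sham (8156 with total counts, 5941 in a fit of only the 2 groups compared, 5926 with the replicate block, and 2051 to 6330 leaving out 1 library, lowest without MI_ART 1 and highest without MI 4) and 2 in MI_ART over MI (93 with DESeq2, 0 in only the 2 groups, 1 with upper-quartile factors, total counts, no filter on low counts, limma-voom, the replicate block or both MI 4 and MI_ART 3 left out, and 0 to 3 leaving out 1 library). Of the 10 members, 6 were called in MI over Sham (3 with no filter, 1 in only the 2 groups, 1 to 6 leaving out 1 library) and 1 in MI_ART over Sham (2 with total counts, 0 with no filter, 3 with DESeq2, 4 in only the 2 groups, 4 with the replicate block, 3 with both MI 4 and MI_ART 3 left out, 0 to 4 leaving out 1 library). In MI_ART over MI 0 members were called in any setting. The 58 calls in the related lists in MI over Sham became 89 with total counts. The numbers did not pair the samples, and the replicate block also gave 5 member calls in MI over Sham and 0 in MI_ART over MI. In MI over Sham the block ended the calls of Angpt1 (adjusted p = 0.173) and Angpt2 (adjusted p = 0.147) and added Vegfa (adjusted p = 0.0199), by edgeR.

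With total counts these log2 fold changes turned positive: Kdr 0.0075, Flt1 0.11, Tek 0.16 and Vegfa 0.20 in MI over Sham, and Pecam1 0.53, Kdr 0.28, Flt1 0.20, Tek 0.29 and Vegfa 0.43 in MI_ART over Sham. The same scaling put Cdh5 at -0.10 in MI_ART over MI, and both libraries left out put it at -0.00496. With the replicate block Angpt1 was at -0.11 and Angpt2 at 0.058 in MI_ART over MI. Leaving out 1 library gave log2 fold changes on both sides of 0, from -0.019 to 0.94 for Angpt1 and from -0.091 to 0.11 for Cdh5 in MI_ART over MI, and from -0.14 to 0.15 for Tie1 in MI_ART over Sham. Log2 ratio differences did so from -1.39 to 0.077 for Angpt2 over Angpt1, -0.049 to 0.47 for Tek over Cdh5 and -0.33 to 0.34 for Vegfa over Vegfb in MI_ART over MI, from -0.071 to 0.28 for Flt1 over Kdr and -0.042 to 0.16 for Pecam1 over Cdh5 in MI over Sham, and from -0.21 to 0.00373 for Flt1 over Kdr in MI_ART over Sham. Both libraries left out turned 4 log2 ratio differences, to -0.071 for Flt1 over Kdr and -0.042 for Pecam1 over Cdh5 in MI over Sham, and to 0.015 for Angpt2 over Cdh5 and -0.24 for Vegfa over Vegfb in MI_ART over MI. None of these reversals was in a ratio whose groups did not overlap. Of 216 ratio values under alternatives, 205 kept their direction. With 3 libraries per group, leaving out 1 of the compared libraries leaves an arm of 2. The cause of these changes was not tested beyond what each setting alters. Angpt2, at 4.23 CPM at its lowest, was above the floor of 3 counts, 0.0592 CPM at most.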
